A study of Arabidopsis thaliana with 46 samples.

Results

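QQS (Qua-Quine Starch, AT3G30720) is an Arabidopsis orphan gene, a protein-coding gene without a recognised relative in other species. It was measured by 1 probe set on each of 46 Affymetrix arrays of seedling shoots, and it is 1 of 13287 genes that the platform's annotation names through a probe set of 1 gene. The gene was selected on its own log2 values in these arrays, in the comparisons of genotypes, darkness and nitrogen described here, so those values are a description and carry no test.

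The arrays compared 3 T-DNA insertion lines of WRKY1, a transcription factor of the WRKY family, with the wild type Col-0. SALK_070989 and Col-0 were grown in 7 conditions, and SALK_016954 and SALK_136009 in the steady condition alone. Each line stands for 1 insertion event, and where the insertions lie was not looked up. Of the 16 groups of genotype and condition, 14 had 3 arrays, and the Col-0 groups kept dark on N-rich or on N-absent medium had 2.

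In all groups the seedlings were 14 days old and grown at 22 °C with 16 h of light at 50 µmol m-2 s-1 and 8 h of darkness. Steady seedlings stayed on full MS medium. For the nitrogen experiment, plants kept on 1 mM KNO3 spent 2 h on either 20 mM KNO3 with 20 mM NH4NO3 (N-rich) or 20 mM KCl (N-absent). For the light experiment, foil covered the dark seedlings between the beginning of the previous day's light period and harvest, while light seedlings kept the normal cycle. The combined experiment joined darkness with N-rich or N-absent medium (dark N-rich and dark N-absent), and the labels do not spell out its media. Whether replicates were separate cultures is unstated, so the p-values given for other genes measure only the spread between these samples, which may be technical.

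QQS is known for its link to the allocation of carbon and nitrogen in leaves: plants with less QQS RNA store more starch, and plants with more QQS store less starch and more protein. Its protein binds NF-YC4, a subunit of the nuclear factor Y transcription complex. QQS RNA is also known to vary between Arabidopsis accessions and stocks together with DNA methylation near the start of the gene, which these arrays do not measure. Starch itself is built in chloroplasts by day and broken down at night by separate sets of enzymes.

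The level of QQS is given as the deposited log2 value, on which 1 unit is a 2-fold difference. Its 46 values ran between 3.71 and 7.08, in a table whose values lay between 2.23 and 14.63. No QQS value lay within 1 unit of the table's lowest value, the level that probe sets without signal share. Within its own array QQS had a percentile of 43.1 to 76.8 among all probe sets, near the middle or in the upper part of the array.

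The targeted gene followed the labels. WRKY1 lay between 2.23 and 3.26 in the 21 SALK_070989 arrays, against 6.57 to 7.84 in the 19 Col-0 arrays. On steady medium WRKY1 averaged 2.26 ± 0.04 in SALK_016954, 4.22 ± 0.27 in SALK_136009 and 2.57 ± 0.47 in SALK_070989, against 7.56 ± 0.18 in Col-0 (SD, n = 3 each). SALK_136009 thus kept a higher WRKY1 level than the other lines.

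QQS was lower in wrky1 than in Col-0 in most of the settings measured. The mean was lower in all 9 genotype comparisons, and in 7 of the 9 every wrky1 array was below every Col-0 array. For SALK_070989 the arrays were separate in 6 of 7 conditions. In single genotype comparisons, 9.14% to 23.3% of the probe sets kept for testing had all wrky1 arrays lower. The share of probe sets lower in as many comparisons as QQS was not counted, and the steady comparisons share their Col-0 arrays. Averaged over the 7 conditions with equal weight, QQS was 1.10 ± 0.09 log2 units below Col-0 in SALK_070989 (standard error), a 2.14-fold lower level. In these whole shoots, fewer cells with QQS RNA and less QQS RNA per cell cannot be told apart.

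**Figure D1:**
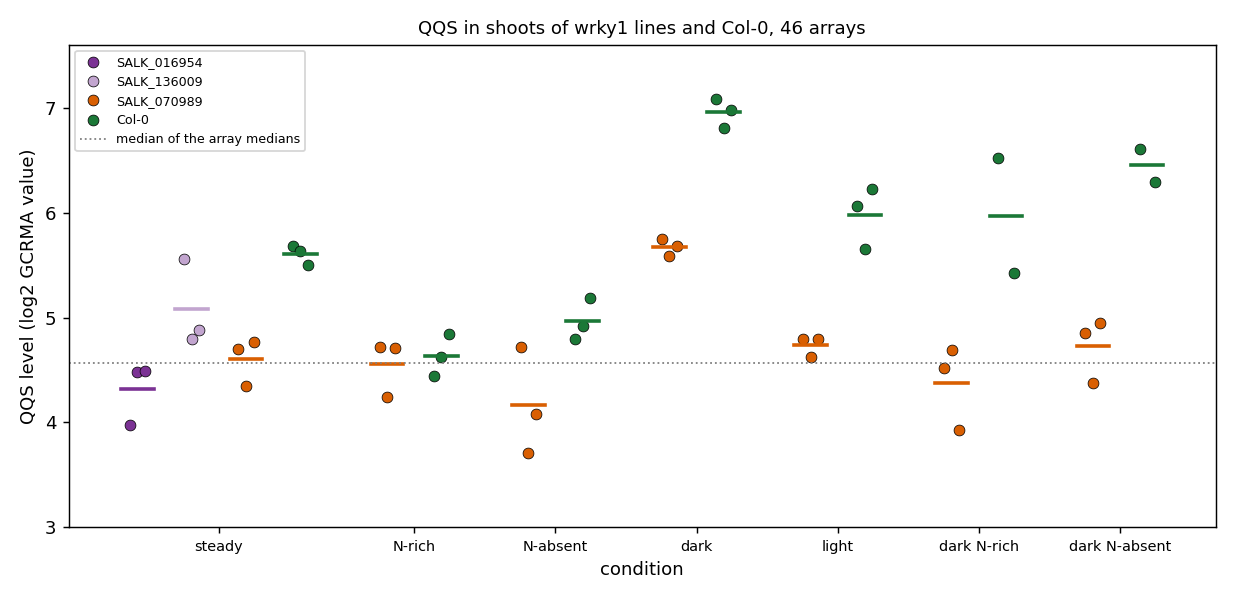
QQS level (log2 GCRMA value, vertical axis) in each of the 46 arrays by condition, with points for arrays, short lines for group means, and wrky1 lines to the left of Col-0. The SALK_070989 points lie below all Col-0 points of the same condition except on N-rich medium, where the groups overlap, and the dotted line marks the median of the array medians.

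On steady medium all 3 lines could be set against the same 3 Col-0 arrays. QQS stood at 3.98, 4.48 and 4.49 in SALK_016954, against 5.68, 5.63 and 5.50 in Col-0. In SALK_136009 the values were 5.56, 4.80 and 4.88, and in SALK_070989 they were 4.70, 4.35 and 4.77. All arrays of SALK_016954 and SALK_070989 were below Col-0, while the first SALK_136009 array lay among the Col-0 values.

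The steady differences from Col-0 were -1.29 ± 0.24 log2 units in SALK_016954 (2.44-fold lower), -0.52 ± 0.24 in SALK_136009 (1.44-fold lower) and -1 ± 0.24 in SALK_070989 (2-fold lower). Because the 3 lines share their Col-0 arrays, these values are not independent of each other. Ranked from the most reduced of 14288 probe sets kept for testing, QQS was the 12th for SALK_016954, the 432nd for SALK_136009 and the 160th for SALK_070989. Of those probe sets, 9.14% had all SALK_016954 arrays below all Col-0 arrays, 12.9% had all SALK_136009 arrays below, and 14.7% all SALK_070989 arrays. The line with the highest remaining WRKY1 level, SALK_136009, had the smallest QQS difference, over only 3 lines. That difference was -0.77 without the first and -0.38 without the second SALK_136009 array. A relation between WRKY1 and QQS levels was not tested.

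Between the lines themselves, QQS was 0.76 ± 0.24 higher in SALK_136009 than in SALK_016954 and 0.47 ± 0.24 higher in SALK_136009 than in SALK_070989. SALK_016954 minus SALK_070989 was -0.29 ± 0.24, little more than its standard error. One SALK_070989 steady array, replicate 3, stood apart in an RNA quality measure, with a GAPDH 3′ minus 5′ signal of 3.02, and had an array median of 4.35. Without it the QQS difference of SALK_070989 was -1.08.

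On N-rich medium the genotypes lay together. QQS stood at 4.72, 4.24 and 4.71 in SALK_070989, against 4.44, 4.62 and 4.84 in Col-0. These values interleaved, and the difference was -0.08 ± 0.24, or 0.08 without the second SALK_070989 array. In this condition 9.87% of probe sets had all SALK_070989 arrays below Col-0, and QQS was not among them.

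After the move to N-absent medium QQS stood at 4.72, 3.71 and 4.08 in SALK_070989, against 4.80, 4.92 and 5.19 in Col-0. The groups did not overlap, but the highest SALK_070989 array came close to the lowest Col-0 array. The difference was -0.79 ± 0.24 (1.73-fold lower), and 10.3% of probe sets had all SALK_070989 arrays lower. SALK_070989 on N-absent medium had the lowest mean of the 16 groups, 4.17 ± 0.51 (SD, n = 3), and the widest spread of any group with 3 arrays.

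In the light experiment the gap between genotypes was present in both light settings. In dark seedlings QQS stood at 5.75, 5.59 and 5.68 in SALK_070989, against 7.08, 6.81 and 6.98 in Col-0. In light seedlings it stood at 4.80, 4.62 and 4.80 in SALK_070989, against 6.06, 5.65 and 6.22 in Col-0. No arrays overlapped in either setting.

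The genotype differences were -1.28 ± 0.24 in dark seedlings (2.43-fold lower) and -1.23 ± 0.24 in light seedlings (2.35-fold lower). QQS was the 19th most reduced probe set in dark and the 27th in light. The share of probe sets with all SALK_070989 arrays lower was 10.3% in dark and 16% in light seedlings.

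The largest gaps in log2 units were in the combined experiment, where Col-0 had 2 arrays. On dark N-rich medium QQS stood at 4.52, 4.69 and 3.93 in SALK_070989, against 6.52 and 5.42 in Col-0. On dark N-absent medium it stood at 4.85, 4.38 and 4.95 in SALK_070989, against 6.61 and 6.29 in Col-0. Again no arrays overlapped, although the Col-0 dark N-rich arrays stood far apart from each other.

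The differences were -1.59 ± 0.27 on dark N-rich (3.02-fold lower) and -1.72 ± 0.27 on dark N-absent medium (3.29-fold lower). QQS was the 8th most reduced probe set on dark N-rich and the 37th on dark N-absent medium. Of all probe sets, 17.9% had lower arrays throughout in SALK_070989 on dark N-rich and 23.3% on dark N-absent medium. Without the first Col-0 dark N-rich array the dark N-rich difference was -1.04, and without the second it was -2.15. The first Col-0 dark N-absent array had a GAPDH 3′ minus 5′ signal of 2.91, below only the steady array named above, and the shoot marker RCA (rubisco activase) was also 0.49 ± 0.09 higher in SALK_070989 than in Col-0 on this medium (limma, adjusted p = 0.00017). The part of either in the QQS difference was not tested.

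**Figure D2:**
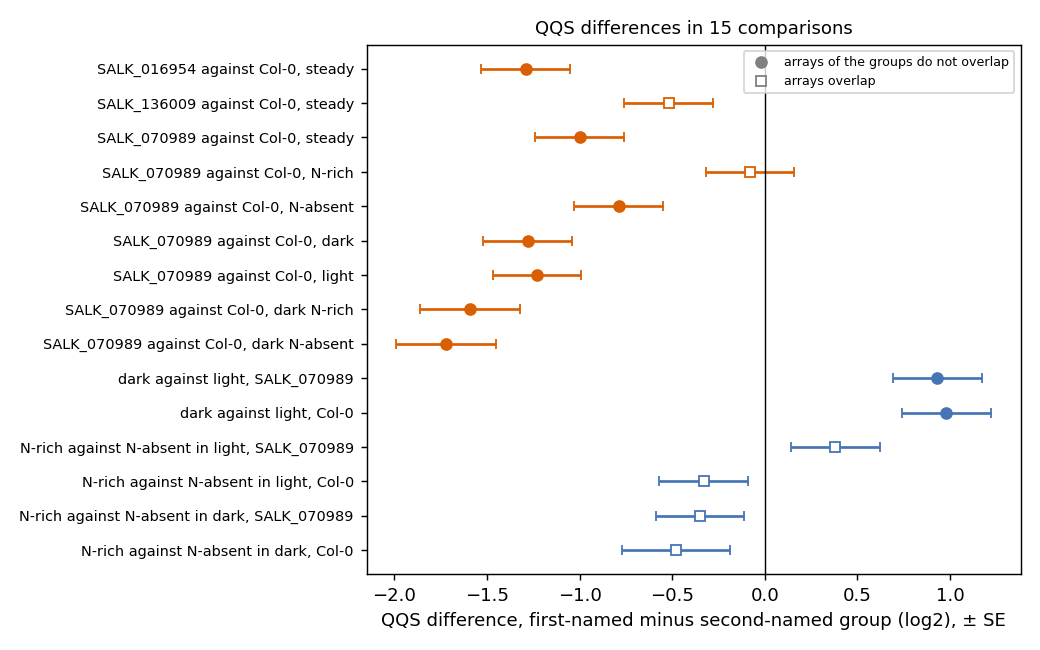
QQS difference of the first-named minus the second-named group in log2 units (points, with standard errors) for the 9 genotype comparisons in orange and the 6 responses to darkness or nitrogen in blue. Filled circles mark comparisons whose arrays do not overlap: 7 genotype comparisons, all below 0, and both dark-against-light responses, both above 0.

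QQS was higher in darkness in both genotypes of the light experiment. The dark arrays of both genotypes given above lay wholly over the light arrays of the same genotype. QQS was higher in dark than in light seedlings by 0.93 ± 0.24 in SALK_070989 (1.91-fold) and by 0.98 ± 0.24 in Col-0 (1.98-fold). The difference of these differences, SALK_070989 minus Col-0, was -0.05 ± 0.34, an error that leaves room for a moderate difference either way.

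Many probe sets were higher by more than QQS. Darkness placed all arrays higher for 39.7% of probe sets in SALK_070989 and 40.3% in Col-0, and QQS was the 2934th most increased of 14288 probe sets in SALK_070989 and the 3071st in Col-0. Dark arrays also had lower medians than light arrays, by 0.24 in SALK_070989 and 0.26 in Col-0. With each array centred on its median, the QQS response was 1.18 in SALK_070989 and 1.25 in Col-0.

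Nitrogen made a smaller difference to QQS. N-rich minus N-absent was 0.38 ± 0.24 in SALK_070989 and -0.33 ± 0.24 in Col-0 in light-grown seedlings, and the arrays overlapped in both genotypes. In darkness N-rich minus N-absent was -0.35 ± 0.24 in SALK_070989 and -0.48 ± 0.29 in Col-0, again with overlapping arrays. All 4 values moved when single arrays were left out. The Col-0 value in darkness was -1.03 without the first and 0.08 without the second Col-0 dark N-rich array, and the Col-0 value in light ran between -0.44 and -0.22. In SALK_070989 the value in light was 0.15 without the second and 0.66 without the first N-absent array. In darkness the SALK_070989 value was -0.13 without the third dark N-rich and -0.52 without the second dark N-absent array.

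Set against each other, the nitrogen responses of the genotypes differed by 0.72 ± 0.34 in light-grown seedlings (SALK_070989 minus Col-0) and by 0.13 ± 0.38 in darkness. The same 4 groups give the genotype differences on N-rich and N-absent medium described above, so the 0.72 restates the narrower gap on N-rich medium. The means behind it were 4.56 ± 0.28 on N-rich and 4.17 ± 0.51 on N-absent medium in SALK_070989, and 4.63 ± 0.20 on N-rich and 4.97 ± 0.20 on N-absent medium in Col-0 (SD, n = 3 each).

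Ordered from high to low, Col-0 filled the top of the list. Col-0 dark had the highest mean, 6.96 ± 0.13 (SD, n = 3), followed by Col-0 dark N-absent at 6.45 ± 0.22 (n = 2) and Col-0 light at 5.98 ± 0.30 (n = 3). Then came Col-0 dark N-rich at 5.97 ± 0.78 (n = 2) and, as the highest wrky1 group, SALK_070989 dark at 5.68 ± 0.08 (n = 3). That dark wrky1 mean was close to Col-0 on steady medium, 5.60 ± 0.10. This order and the spans given next join groups of 4 experiments, and experiment and treatment cannot be told apart in them.

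The remaining 10 groups lay between 5.08 ± 0.42 in SALK_136009 steady and 4.17 in SALK_070989 N-absent. Of the 15 pairs of neighbours in this order, 13 overlapped in their arrays. The exceptions were the step between Col-0 dark and Col-0 dark N-absent, 0.51, and the step between Col-0 dark N-absent and Col-0 light, 0.47. Over its 7 conditions QQS spanned 1.50 units between the lowest and highest mean in SALK_070989 (2.83-fold), against 2.32 units in Col-0 (5.01-fold).

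Starch enzymes gave a different picture over the same arrays. A list of 42 genes of starch synthesis and breakdown, drawn up from textbook knowledge, had 7 members with a named probe set that passed the filter of a highest group mean over 4: 5 of 19 for synthesis and 2 of 23 for breakdown. The other members were not analysed here, so these 7 do not stand for the pathway. Of their 63 values in the 9 genotype comparisons, 9 passed the limma test at an adjusted p under 0.05, 6 lower and 3 higher in wrky1.

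PWD (AT5G26570), the phosphoglucan water dikinase that phosphorylates starch granules for breakdown, accounted for 4 of the 6 lower values. On steady medium it stood at 6.88, 6.89 and 6.96 in SALK_136009 and at 6.80, 6.90 and 6.53 in SALK_070989, against 7.44, 7.38 and 7.31 in Col-0. All arrays of both lines were below Col-0. It changed by -0.46 ± 0.12 in SALK_136009 (limma, adjusted p = 0.0091) and by -0.63 ± 0.12 in SALK_070989 (limma, adjusted p = 0.00022). In SALK_016954 its difference was -0.36 ± 0.12 (limma, adjusted p = 0.084).

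PWD was also lower in SALK_070989 on N-absent medium, -0.51 ± 0.12 (limma, adjusted p = 0.0054), and in light, -0.50 ± 0.12 (limma, adjusted p = 0.0058). Without the second SALK_070989 array the N-absent difference was -0.40 (limma, adjusted p = 0.058), and the light difference without that group's second array was -0.41 (limma, adjusted p = 0.064). In dark N-absent seedlings PWD was higher by 0.37 ± 0.13 (limma, adjusted p = 0.043), the opposite direction to QQS, and this call was lost with a replicate block (0.38, adjusted p = 0.054) and without single arrays. PWD thus passed the test in the lower direction in 3 SALK_070989 settings, steady, N-absent and light, and the QQS differences there were -0.79 to -1.23. On N-rich medium, where QQS differed by -0.08, PWD differed by -0.38 ± 0.12 (limma, adjusted p = 0.068). After a further quantile normalization that call was gained (-0.42, limma, adjusted p = 0.039). PWD differed by -0.33 ± 0.12 in dark and by -0.09 ± 0.13 on dark N-rich medium (limma, adjusted p = 0.15 and 0.77). QQS differed by -1.28 and -1.59 there.

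APL3 (AT4G39210), a large subunit of ADP-glucose pyrophosphorylase, the enzyme that makes the sugar donor for starch, was at 5.13, 5.46 and 4.56 in SALK_070989 on steady medium, against 5.85, 5.80 and 5.58 in Col-0. It fell by 0.69 ± 0.21 (limma, adjusted p = 0.026), a call lost without the third SALK_070989 array (-0.45, adjusted p = 0.25), without the first Col-0 array (-0.64, adjusted p = 0.093) and without the second (-0.66, adjusted p = 0.079). On dark N-rich medium it was at 4.83, 4.49 and 4.83 in SALK_070989, against 3.46 and 3.86 in Col-0. It was higher there by 1.05 ± 0.24 (limma, adjusted p = 0.005), where QQS was lower by 1.59, and without the first Col-0 array the APL3 difference was 0.85 (limma, adjusted p = 0.12).

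The last calls came on dark N-absent medium. DPE1 (AT5G64860), the plastid disproportionating enzyme that recycles small glucans, was higher in SALK_070989 by 0.73 ± 0.18 (limma, adjusted p = 0.0026). PTST2 (AT1G27070), a protein of starch granule initiation, was lower by 0.40 ± 0.14 (limma, adjusted p = 0.042), and this call was lost without either Col-0 array (adjusted p = 0.097 and 0.25). SS5 (AT5G65685), a starch synthase family protein, SBE2.2 (AT5G03650), a branching enzyme, and PTST1 (AT5G39790), which brings granule-bound starch synthase to granules, passed the limma test in 0 of 9 genotype comparisons. In fits to only the groups compared, 6 of the 9 calls were lost (limma, adjusted p of 0.09 to 0.19), and the PWD calls in steady SALK_136009, steady SALK_070989 and light SALK_070989 were not.

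These counts stand beside the share of all probe sets past the same test. On steady medium it was 3.28% in SALK_016954, 8.48% in SALK_136009 and 12.5% in SALK_070989, where 0, 1 and 2 of the 7 starch genes passed. In SALK_070989 it was 8.02% on N-absent, 5.61% in light and 5.19% on dark N-rich medium, where 1 of 7 passed each time, and 20.1% on dark N-absent medium, where 3 of 7 passed. It was 2.75% on N-rich medium and 2.6% in dark, where 0 of 7 passed.

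In darkness the measured starch breakdown genes rose and most synthesis genes fell, while QQS, not tested, was higher. The 2 breakdown genes rose in both genotypes. PWD rose by 1.72 ± 0.12 in SALK_070989 (limma, adjusted p = 1.5e-15) and by 1.55 ± 0.12 in Col-0 (limma, adjusted p = 2.2e-14). DPE1 rose by 0.63 ± 0.16 in SALK_070989 (limma, adjusted p = 5e-04) and by 1.45 ± 0.16 in Col-0 (limma, adjusted p = 2e-10).

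The synthesis genes fell in darkness, 5 of 5 in SALK_070989 and 4 of 5 in Col-0. APL3 changed by -2.1 ± 0.21 in SALK_070989 (limma, adjusted p = 5.1e-11) and by -2.59 ± 0.21 in Col-0 (limma, adjusted p = 2e-13). One dark array of each genotype was at 2.23, the table's lowest value, so both APL3 changes are lower bounds. SBE2.2 changed by -1.74 ± 0.11 in SALK_070989 and by -2.15 ± 0.11 in Col-0 (limma, adjusted p = 4.7e-16 and 8.2e-19), and PTST1 by -1.52 ± 0.21 in SALK_070989 and by -1.41 ± 0.21 in Col-0 (limma, adjusted p = 7.7e-08 and 3e-07). The PTST1 dark means, 2.53 ± 0.44 in SALK_070989 and 2.87 ± 0.33 in Col-0 (SD), were near the table's lowest value. The PTST1 changes may therefore be understated too.

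The smaller decreases depended on scaling. With arrays centred on their median, the SS5 change in Col-0 was -0.10 (limma, adjusted p = 0.46), against -0.36 as deposited. The PTST2 change in SALK_070989 was then -0.08 (limma, adjusted p = 0.57), against -0.32 as deposited. In dark against light, 74.3% of all probe sets in SALK_070989 and 76.3% in Col-0 passed the limma test, so a call by itself sets no gene apart here. The median difference was -1.52 for synthesis and 1.18 for breakdown genes in SALK_070989, and -1.41 for synthesis and 1.50 for breakdown genes in Col-0, while that of all probe sets was 0.01 in SALK_070989 and 0 in Col-0.

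**Figure D3:**
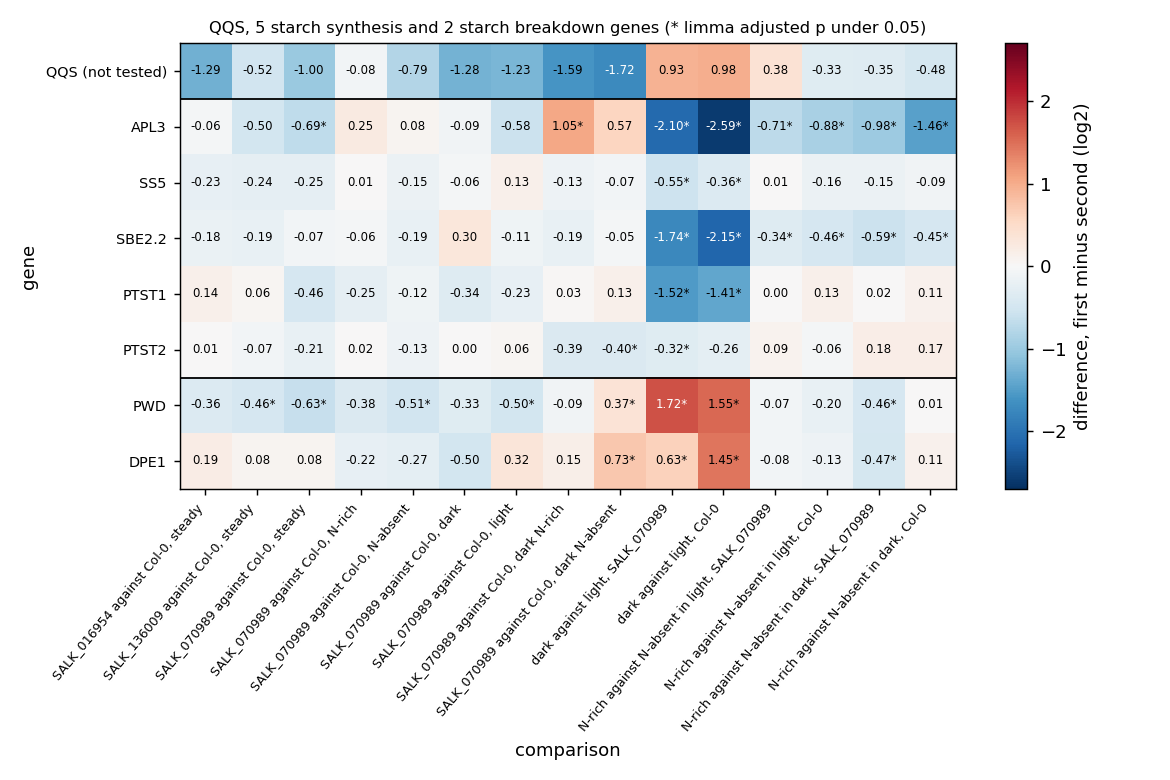
Differences in log2 units (numbers and colour) of QQS and 7 starch genes in the 15 comparisons, with an asterisk where a starch gene passed the limma test; QQS was not tested. The first 9 columns are wrky1 against Col-0, where 9 of 63 starch gene values carry an asterisk. The QQS mean is lower in all 9, but only by -0.08 ± 0.24 on N-rich medium. In the dark-against-light columns QQS and the 2 breakdown genes are higher and the 5 synthesis genes lower.

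In both genotypes 2 of the starch synthesis genes passed the limma test for nitrogen. APL3 was lower on N-rich than on N-absent medium in all 4 settings. Its differences were -0.71 ± 0.21 in SALK_070989 and -0.88 ± 0.21 in Col-0 in light-grown seedlings, and -0.98 ± 0.21 in SALK_070989 and -1.46 ± 0.26 in Col-0 in darkness. SBE2.2 was lower in the same 4 settings, with differences of -0.34 to -0.59. The limma test passed 2 of 7 starch genes in 3 of these settings, with 18.8% of all probe sets called in SALK_070989 and 25.8% in Col-0 in light-grown seedlings, and 20.1% in Col-0 in darkness.

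In SALK_070989 in darkness 4 of 7 passed, against 28.6% of all probe sets. The additional genes there were PWD, -0.46 ± 0.12 (limma, adjusted p = 0.0031), and DPE1, -0.47 ± 0.16 (limma, adjusted p = 0.021). The APL3 and SBE2.2 calls in light-grown SALK_070989 were lost when single arrays of those groups were left out. The SBE2.2 call in dark Col-0 was lost likewise. In fits to only the groups compared, APL3 and SBE2.2 lost their calls in light-grown SALK_070989 (limma, adjusted p = 0.054 and 0.18). Both also lost those in dark Col-0 (limma, adjusted p = 0.055 and 0.13). DPE1 lost its call in dark SALK_070989 (limma, adjusted p = 0.095). The DPE1 call in dark SALK_070989 was lost without the third dark N-absent array (-0.28, limma, adjusted p = 0.23) and without the second dark N-rich array (-0.42, limma, adjusted p = 0.088).

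The other lists drawn up around QQS were barely covered. None of 22 NF-Y subunit genes, among them the QQS partner NF-YC4, and none of 16 nitrogen assimilation genes had a named probe set past the filter, so they are not analysed here. Of 16 genes of DNA methylation and silencing, 1 was measured: DME (AT5G04560), a DNA glycosylase that removes methylated cytosine. DME passed the limma test in 0 of 9 genotype comparisons, with differences of -0.33 to 0.20. In darkness it rose by 1.20 ± 0.12 in SALK_070989 and by 1.22 ± 0.12 in Col-0 (limma, adjusted p = 1.4e-11 and 6.7e-12).

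QQS lies on chromosome 3 in a stretch with few annotated protein-coding genes. Among the 10 annotated genes on each side in the TAIR10.1 gene table, 12 were pseudogenes, 3 transcribed pseudogenes, 2 long noncoding RNAs and 3 protein-coding genes. Of these 20, AT3G30730 and AT3G30740 had a probe set of 1 gene, and neither passed the filter, with highest group means of 2.35 and 2.29. The other 18 are not analysed here.

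The nearest named probe sets past the filter lay 80 annotated genes before QQS (AT3G30390) and 285 after it (AT3G32930). Over the 5 nearest on each side, 2 of 90 genotype values passed the limma test, and the 90 differences lay between -0.50 and 0.68; of all probe sets, 2.6% to 20.1% passed in these comparisons. These were AT3G32930, higher in SALK_070989 by 0.66 ± 0.13 on dark N-absent medium (limma, adjusted p = 0.00043), and AT3G30300, higher by 0.51 ± 0.15 on dark N-rich medium (limma, adjusted p = 0.046). In the fit to only the groups compared the first call was lost (limma, adjusted p = 0.063), and so was the second (limma, adjusted p = 0.31). The second was also lost with a replicate block (0.44, adjusted p = 0.16) and when the first Col-0 array was left out (0.19, adjusted p = 0.68).

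The other 8 were AT3G29375, AT3G29760, AT3G30380 and AT3G30390 before QQS and AT3G32940, AT3G33530, AT3G42050 and AT3G42130 after it. Neither of the called genes moved in the direction of QQS, which was lower in both settings. In darkness 8 of the 10 neighbours passed the test in each genotype, 4 higher and 4 lower, near the share of all probe sets (74.3% in SALK_070989 and 76.3% in Col-0). In the fit to all arrays no neighbour passed the test in the lower direction in the 9 genotype comparisons, and none of the 10 is adjacent to QQS. Under alternatives 3 did: AT3G29375 in light in the fit to only the groups compared (-0.50, limma, adjusted p = 0.034), AT3G33530 in steady SALK_070989 without its first array (-0.34, limma, adjusted p = 0.013), and AT3G42130 in dark without the second Col-0 array (-0.71, limma, adjusted p = 0.00082).

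The genes whose pattern was most like that of QQS were sought among 6398 named probe sets whose group means spanned at least 1 unit, by Pearson's r over the 16 group means. The highest were AT5G66440 with 0.771, RL2 (AT5G45160, a RADIALIS-like MYB-related protein) with 0.759, AT1G22060 with 0.75, AT5G55060 with 0.746 and AT3G27700 with 0.741. All 5 had their highest mean in Col-0 dark, as QQS did, which a choice by correlation with QQS favours. The 16 points share experiments and Col-0 arrays and are not independent, and no test is attached.

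These genes were like QQS in darkness and less so between genotypes. In dark against light seedlings the 5 genes were higher by 0.61 to 1.37 in the 2 genotypes, a range that includes the QQS values of 0.93 and 0.98. Over the 9 genotype comparisons their 45 differences lay between -0.58 and 0.21, against -1.72 to -0.08 for QQS. AT5G66440, for example, differed by -0.18 ± 0.12 in dark seedlings, where QQS differed by -1.28.

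Genes with the opposite pattern reached r of -0.83 for AT4G03820, -0.816 for AT3G43740, -0.807 for AT2G22900, -0.801 for AT5G63135 and -0.776 for AT5G64480. All 5 had their lowest mean in Col-0 dark, which the choice by correlation favours as well. Their 45 genotype differences lay between -0.05 and 0.49. The choice of genes depended on the measure: with Spearman's rho 1 of the 5 most like and 3 of the 5 most opposite genes were the same, over 46 arrays 3 and 2, and among genes spanning at least 2 units 0 and 0.

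**Figure D4:**
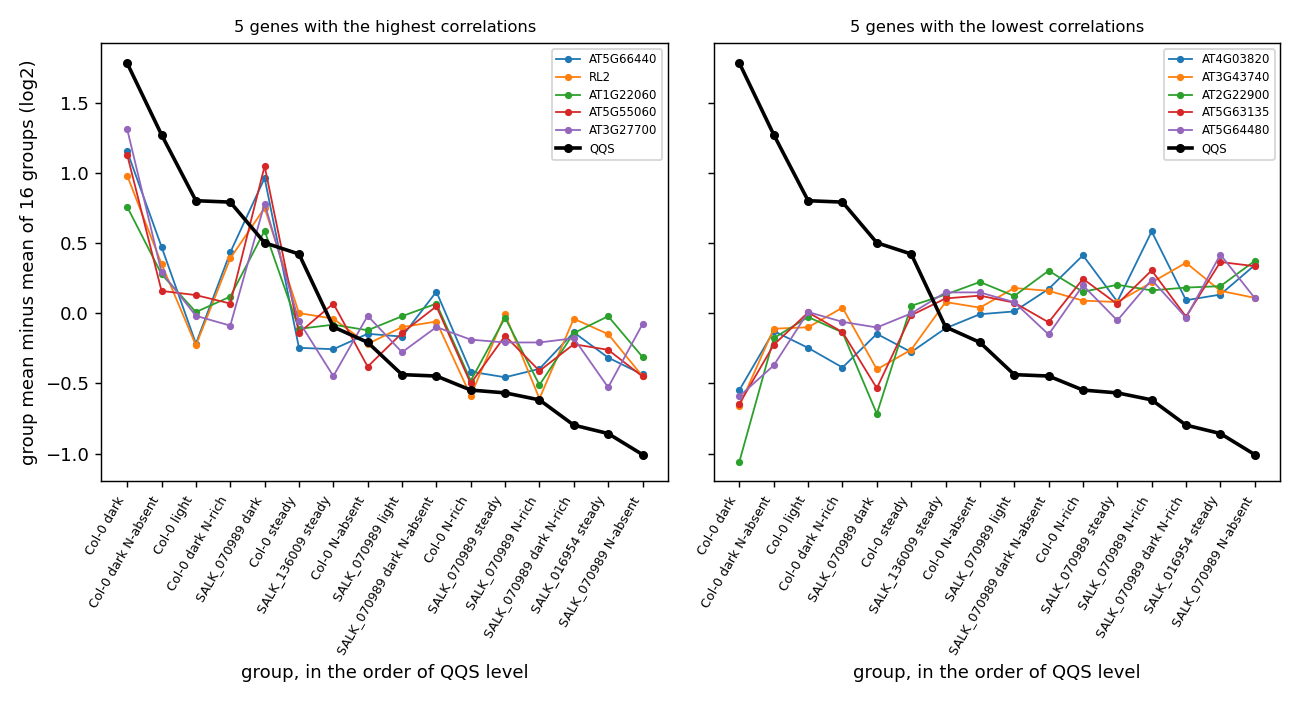
Group means minus each gene's mean over 16 groups (log2) for QQS (black) and, on the left, the 5 genes with the highest and, on the right, the 5 with the lowest correlation, in the order of QQS level. The like genes peak in Col-0 dark and SALK_070989 dark, with lower means in the dark N-rich and dark N-absent groups. QQS in SALK_070989 dark differs from Col-0 dark by -1.28.

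Of 7 shoot and 8 root markers listed, 1 and 3 had a named probe set. The shoot marker RCA lay between 10.87 and 14.05 in all arrays. The root hair markers EXPA7 and EXPA18 lay at 2.23 to 3.29 and 2.23 to 3.64, near the table's lowest value. They did not pass the filter and were not tested. On dark N-rich medium EXPA7 averaged 3.07 in SALK_070989 and 2.23 in Col-0, and EXPA18 2.73 and 2.23. On dark N-absent medium EXPA7 averaged 2.74 in SALK_070989 and 2.23 in Col-0, and EXPA18 2.35 and 2.23. On N-absent medium EXPA18 averaged 2.7 and 2.31. In light seedlings EXPA7 went the other way, at 2.23 in SALK_070989 and 2.27 in Col-0. PYK10, a beta-glucosidase of roots and seedling ER bodies, was at 10.44 to 12.32. It passed the limma test in 0 of 9 genotype comparisons. Its differences lay between -0.04 ± 0.13 on N-rich medium and 0.43 ± 0.13 in dark (limma, adjusted p = 0.92 and 0.074). On dark N-rich medium it was 0.37 ± 0.15 (limma, adjusted p = 0.15). In darkness PYK10 changed by -0.77 ± 0.13 in SALK_070989 and by -1.10 ± 0.13 in Col-0, and RCA by -2.66 ± 0.08 in SALK_070989 and by -2.64 ± 0.08 in Col-0 (limma, adjusted p = 3.8e-06, 2.9e-09, 1.7e-25 and 1.6e-25). The part of tissue makeup in the QQS values was not tested.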

How the data were processed

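The labels' protocols describe shoot RNA from a spin column kit, amplified and labelled for 3′ expression arrays. The values are the authors' deposited log2 probe set levels, and the submitters' processing notes name GCRMA, with no version. The log2 scale was inferred from the range of the values. Normalization over arrays can hide a change of most transcripts in 1 direction. The number of arrays limits the precision.

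Of 22810 probe sets, 64 are controls, and 14288 with a highest group mean over 4 were kept. The platform's annotation names 1 gene for 13513 probe sets and several for 503, and does not list 8794; 7668 kept probe sets have 1 gene. A gene with several probe sets was represented by the one with the highest mean over all arrays.

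A linear model of 16 group means was fitted to all 46 arrays with limma 3.58.1 in R 4.3.3 (30 residual and 4.97 prior degrees of freedom), with Benjamini-Hochberg adjustment over the kept probe sets in each of 15 comparisons and a threshold of 0.05. The replicate SD of QQS in this fit was 0.31, and values after ± are standard errors unless an SD is named. The shared fit supplies the error for groups of 2 arrays. QQS itself, its ranks and its likeness to other genes were not tested. QQS and all lists were chosen with earlier results of these data known. The genes to be named were QQS, WRKY1, the 10 neighbours, the 5 most and 5 least correlated genes, and from each list up to 4 with the smallest adjusted p in a comparison; SS5, PTST1 and the markers were named beyond that rule, with their values known. On simulated data of 14288 genes, the fit recovered 43.3% of 0.5-unit and 95.5% of 1-unit changes for steady SALK_070989 against Col-0. For dark N-rich medium it recovered 34.3% of 0.5-unit and 88.1% of 1-unit changes, and each comparison had 7 false calls. The simulated arrays had independent noise, 200 changed probe sets and no other group differences. The recovery rates therefore need not hold for the real arrays.

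Replicate numbers were checked as pairs through the correlation of deviations from group means. By that check they paired samples in SALK_070989 against Col-0 on N-absent medium (r of 0.14 to 0.49) and in N-rich against N-absent Col-0 in light (0.13 to 0.15), and in no other comparison. Replicates correlated at 0.9897 to 0.9977, with at most 3.15% identical values. The alternatives were a further quantile normalization, centring on array medians, a replicate block, other eBayes settings, other filters, a fit without the other groups, and omission of single arrays; the test of differences between the genotypes' responses and a crossed pairing were added after seeing the data.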

Additional observations from a re-analysis of the deposited data

Results flagged for a closer look

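Among the 20 measured genes of the lists and neighbours, 3 responded differently in SALK_070989 and Col-0 by a test of the difference itself within the same limma fit. DPE1 rose in darkness by 0.63 in SALK_070989 and by 1.45 in Col-0, a difference of -0.82 ± 0.22 (limma, adjusted p = 0.039), where the same difference for QQS was -0.05 ± 0.34. RCA differed by -0.11 between N-rich and N-absent medium in darkness in SALK_070989 and by 0.57 in Col-0, a difference of -0.69 ± 0.13 (limma, adjusted p = 0.00052). The chromosomal neighbour AT3G32930 differed by -0.46 in SALK_070989 and by 0.21 in Col-0 in the same contrast, a difference of -0.68 ± 0.19 (limma, adjusted p = 0.017). Both of the last rest on Col-0 groups of 2 arrays. Of all 14288 probe sets, the test called 317 for darkness, 26 for nitrogen in light and 1363 for nitrogen in darkness. The calls of RCA and AT3G32930 among 20 genes were near the share of all probe sets for nitrogen in darkness. These calls thus do not set the lists and neighbours apart.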

How the results depend on the processing

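The QQS differences stayed within 1 replicate SD (0.31) of the values given in all 60 alternatives that kept every array, and in 82 of 86 that left out 1 array. The other 4 came from leaving out 1 of the 2 Col-0 dark N-rich arrays: the genotype difference on dark N-rich medium ranged from -2.15 to -1.04, and the Col-0 nitrogen response in darkness from -1.03 to 0.08. Over all settings 95 of 97 genotype values were below 0; the others were on N-rich medium, where leaving out arrays gave -0.17 to 0.08. Counted over 15 comparisons, 34 list values passed the test, against 21 in fits to only the groups compared, which have fewer residual degrees of freedom, and 24 neighbour values passed. With the replicate block the counts were 36 and 23, and the QQS differences on N-absent, dark N-rich and dark N-absent medium were -0.79, -1.54 and -1.66. Under the block PWD on dark N-absent and AT3G30300 on dark N-rich medium lost their calls, and PTST2 on dark N-rich medium (-0.46, adjusted p = 0.048 in limma) and DPE1 in dark (-0.50, adjusted p = 0.037 in limma) gained one. In a crossed pairing of the Col-0 dark nitrogen groups, chosen after seeing the data, 332 probe sets were called, against 0 as numbered and 445 without a block. Fits that used the compared groups alone called 0 of 14288 probe sets for SALK_070989 against Col-0 on N-absent medium and 1 on N-rich medium.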

Other observations

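QQS values can also be set side by side across experiments within a genotype, where experiment and treatment cannot be told apart. N-absent minus steady seedlings gave -0.43 ± 0.24 in SALK_070989 and -0.64 ± 0.24 in Col-0. Light minus steady seedlings gave 0.13 ± 0.24 in SALK_070989 and 0.37 ± 0.24 in Col-0. Dark N-absent minus dark seedlings gave -0.95 ± 0.24 in SALK_070989 and -0.51 ± 0.27 in Col-0. The combined experiment had no light groups of its own. QQS means in SALK_070989 were 4.38 on dark N-rich and 4.56 on N-rich medium, against 5.97 and 4.63 in Col-0. On dark N-absent and N-absent medium they were 4.73 and 4.17 in SALK_070989, against 6.45 and 4.97 in Col-0. SALK_070989 was thus not higher on dark N-rich than on N-rich medium, unlike in the light experiment.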
